A study of Arabidopsis thaliana with 4 samples.

Results

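Ascorbate peroxidases use ascorbate (vitamin C) to reduce hydrogen peroxide to water, and plants keep separate forms of the enzyme in the cytosol, the peroxisome and the chloroplast. In leaves, the chloroplast forms remove peroxide that photosynthesis generates, and ascorbate is then regenerated by reductases that draw on NADPH or glutathione. The splicing of 5 Arabidopsis thaliana genes of this family is described here in the ecotypes Columbia (Col) and Landsberg erecta (Ler). They are SAPX (AT4G08390), TAPX (AT1G77490), APX1 (AT1G07890), APX3 (AT4G35000) and TL29 (AT4G09010, also named APX4). All events listed for these gene identifiers were taken, which gave 42 of the 14133 events in the table. SAPX had 3 events, TAPX 2, APX1 19, APX3 2 and TL29 16. By type they were 15 retained introns, 17 alternative 3' splice sites, 6 alternative 5' splice sites and 4 skipped exons.

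The plants were 14-day-old seedlings, with no treatment in the labels, of the Col and Ler ecotypes, which differ in genome sequence, kept on plates at 22 °C in days of 8 h light and 16 h dark. Polyadenylated RNA was sequenced in 2 samples per ecotype, and the labels give the source as the first leaf in one field and as shoots in another. The authors deposited 1 inclusion level per ecotype, so no level below has an SD or an n, the spread between samples is not shown, and the number of reads behind a level is unknown. An inclusion level is the percentage assigned to the form with the extra bases: the kept intron, the longer exon or the included exon. Levels describe the proportion of forms within a gene and say nothing of how much RNA the gene made. An event is called marked where the authors' deposited table gives it a sign for higher in Col or higher in Ler. All marked events there combined q under 0.05 with a gap above 10 percentage points. Not every such event was marked: 1189 events had q under 0.05 with at least 10 points, and 1054 were marked.

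The largest listed difference among these genes was in SAPX, the enzyme of the chloroplast stroma and of mitochondria. Its retention event was listed at 99.9% in Col and 14.5% in Ler and was marked (q = 0, the authors' deposited table). The interval has 80 bp in Ler and 0 bp in Col, where its flanking bases, at chromosome 4 positions 5315469 and 5315470 in TAIR10, are neighbours. Of 7389 retention events with both intervals listed, this was the 1 with no bases in Col, the next shortest there had 21 bp, and 0 had none in Ler. The 99.9% in Col therefore stands for an exon that runs on without an interval and not for a kept intron. In Ler the form without the 80 bp made up the other 85.5%. By the listed coordinates this form joins the same flanking bases that are neighbours in Col. The gap between the listed levels is therefore not the share of SAPX RNA that differs between the ecotypes. Only the 14.5% in Ler was assigned to a form with the 80 bp. By size the listed difference ranked 30 among 7399 retention events and 17 among the 620 marked ones. This rank sets it beside events with an interval in both ecotypes, so it does not measure a difference in keeping an intron.

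The position falls inside the coding part of SAPX exon 2, which is uninterrupted there in all 5 annotated Col transcripts and has 268 bp in the first-listed one. TAPX, the close relative of SAPX that is bound to the thylakoid membrane, has an annotated intron of 139 bp at the matching place (chromosome 1, 29118073 to 29118211). The 15 bases on each side of the point in SAPX and on each side of that intron in TAPX, with the intron removed, are shown because they place the Ler interval. Capitals mark the bases that differ between the genes, and both lines are the plus strand of the Col reference from RefSeq.
SAPX: tgccatccGatTttggttagattAggTtgg
TAPX: tgccatccCatCttggttagattGggGtgg
Of these 30 bases, 4 differ. The SAPX line covers chromosome 4, 5315455 to 5315484, and the TAPX line joins chromosome 1, 29118058 to 29118072, with 29118212 to 29118226.

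The 8 exon stretches that follow have the same lengths in both genes. From the point to the end of exon 2, SAPX has 121 bp, and the TAPX exon after its intron also has 121 bp, of which 102 bases (84.3%) are identical without a gap. The lengths of these 8 stretches are 121, 101, 88, 68, 87, 75, 78 and 105 bp, and 585 of 723 bases (80.9%) are identical. Before the point, exon 2 has 147 bp in SAPX and 135 bp in TAPX. The point follows 381 coding bases in SAPX and the intron follows 318 in TAPX, both whole numbers of codons. At its ends the TAPX intron reads tcccatcttgGTgaagtatc at the donor (chromosome 1, 29118063 to 29118082) and ttcattgcAGgttagattgg at the acceptor (29118202 to 29118221), with the first and the last bases of the intron in capitals. The listed coordinates thus give Ler an interrupted exon 2 in SAPX, at the place where TAPX is interrupted in Col. No retention event of this TAPX intron is among the 2 TAPX events. The 80 bp lie between whole codons and are not a multiple of 3. Ler sequence was not used here.

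**Figure D1:**
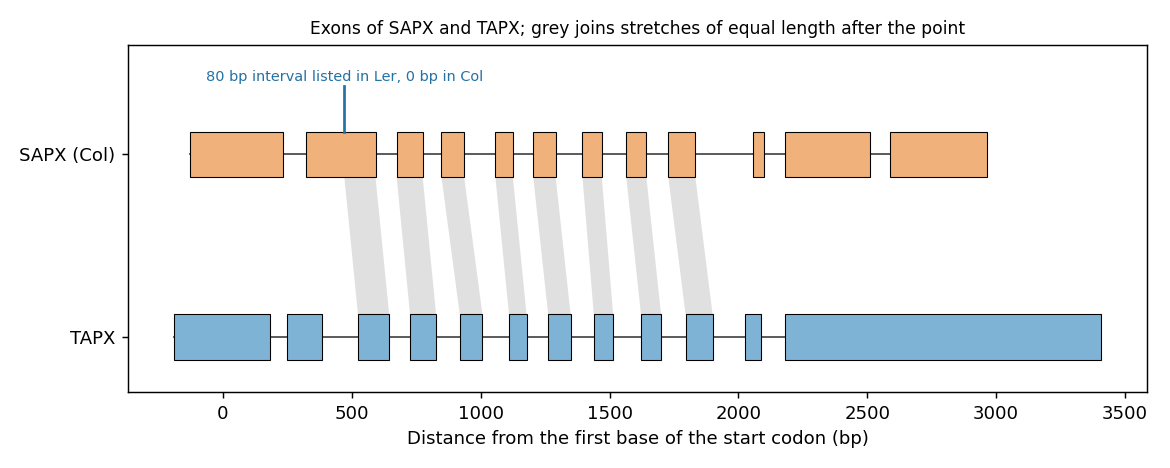
Exons of the first-listed transcripts of SAPX and TAPX in the Col reference, drawn as boxes by their distance in bp from the first base of the start codon. The blue line marks the point in SAPX exon 2 where Ler has an 80 bp interval and Col has 0 bp, and grey bands join the 8 stretches of equal length that follow it in the pair of genes.

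The other 2 SAPX events carried no mark. At exon 2 a pair of acceptors lie 3 bp apart within the coding span, so that the forms differ by a single codon. The upstream acceptor was used at 93.3% in Col and 93.1% in Ler. It reads ttgatttcAGaagaaatatc (chromosome 4, 5315313 to 5315332) and the downstream acceptor reads atttcagaAGaaatatcgaa (5315316 to 5315335), with the last bases of the intron in capitals. On the 3' UTR side, the upstream acceptor of another pair 3 bp apart was used at 3.23% in Col and 4.14% in Ler. By the authors' deposited table, q was 1 for the former and 0.770 for the latter.

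Over the 5 genes, 6 of the 42 events (14.3%) were marked, against 7.46% of all 14133 events. Of the 15 retention events 5 were marked, against 8.38% of all 7399. The intervals of these 5 are annotated as introns in 0 transcripts, so the count is not one of annotated introns kept. The SAPX interval, with 0 bp in Col, is counted among both the 15 and these 5. Of the marked events 5 were listed as higher in Col (11.9%, against 4.08% of all events) and 1 as higher in Ler (2.38%, against 3.38%). The SAPX event is among these 5 by its listed levels only. With 0 bp in Col, its sign does not mean that a form with the extra bases was more used in Col. Of the 23 events with the same interval lengths in both ecotypes 2 were marked (8.70%), against 5.73% of 11850 such events in the table, and the median absolute difference of the 23 was 3.11 points. With 1 event per gene, the first by position, 0 of 5 were marked. The 6 marked events are not independent: those that share an unannotated splice site form 4 groups, 1 in SAPX, 1 in APX1 and 2 in TL29. The 42 events themselves rest on 30 distinct intervals, 16 of them annotated. The median absolute difference was 1.58 percentage points, against 3.78 points over all events. It was 8.07 points for the 15 retention events, against 5.19 points over all retention events. A difference of at most 5 points was found in 26 events (61.9%), against 57.2% of all events. TAPX and APX3 had no marked event.

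**Figure D2:**
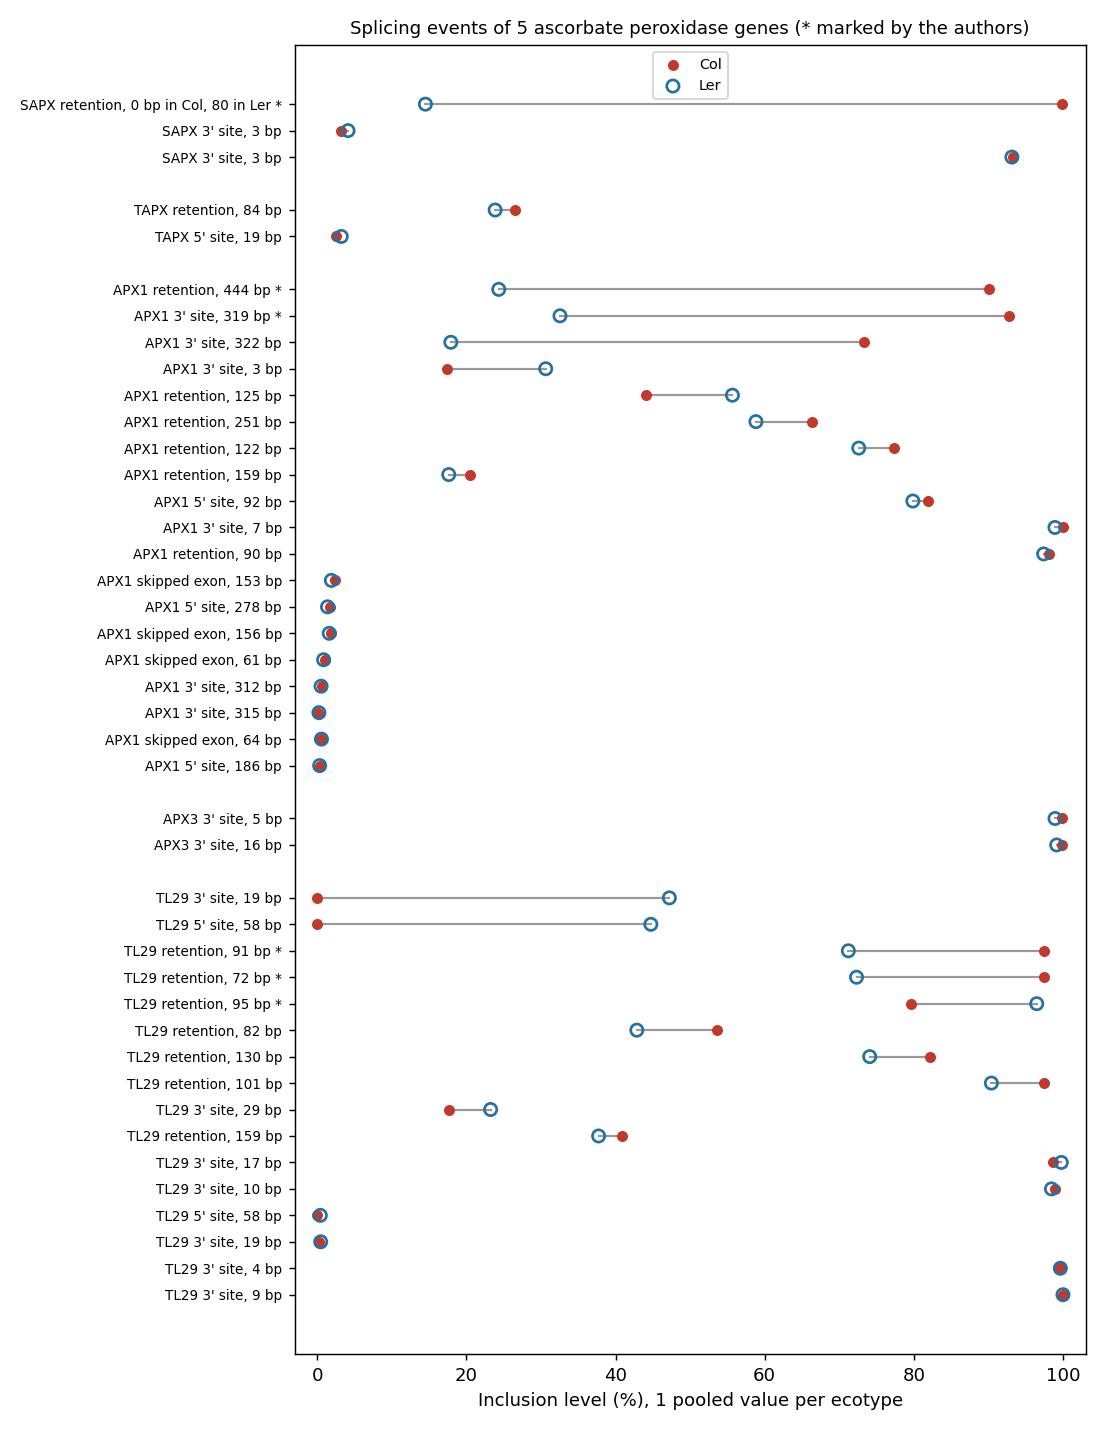
Inclusion level (%) of each of the 42 events in Col (filled) and Ler (open), by gene and in order of the difference, with 1 pooled value per ecotype and no error. SAPX, APX1 and TL29 hold the 6 marked events (asterisks). The longest SAPX line spans 99.9% to 14.5%, but its interval has 0 bp in Col, so its length is no difference in the use of extra bases.

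APX1, the main cytosolic enzyme, had 18 of its 19 events on the 5' UTR side, in the leader intron that ends just before the start codon. The main form joined the donor at chromosome 1, 2437555 to the acceptor at 2437993, 12 bases before the start codon. An acceptor 7 bp farther, at 2438000, leaves 5 bases before the start codon and is annotated in 0 of 8 transcripts. The acceptors are shown because the marked APX1 events turn on the latter, with the last bases of each intron in capitals.
APX1 acceptor 2437993: tttgttccAGagcttagcta
APX1 acceptor 2438000: cagagcttAGctaagatgac
The windows cover 2437983 to 2438002 and 2437990 to 2438009 on the plus strand.

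In the direct contrast of these acceptors, the annotated one was used at 99.9% in Col and 98.9% in Ler. The downstream acceptor thus took 0.0538% in Col and 1.09% in Ler (q = 1.82e-19, the authors' deposited table). This event had no mark, and the levels were 1.04 points apart. Against rarer junctions the same acceptor gave large differences. The acceptor at 2437681 was listed at 92.7% in Col and 32.6% in Ler against 2438000, and this event was marked (q = 4.44e-14, the authors' deposited table). Against the acceptor at 2437678 the levels were 73.3% and 17.9%, unmarked although q = 0.000179 (the authors' deposited table). The retention event of the 444 bp interval that ends at 2438000 was at 90.0% in Col and 24.3% in Ler and was marked (q = 1.78e-12, the authors' deposited table). Since the junction to 2437993 is not part of this contrast, the level listed for retention is no measure of how often the leader intron was kept, and the same holds for the other retention levels of overlapping intervals below. In each of these comparisons the form with the 2438000 acceptor had the larger part in Ler, and all rest on the same junction. The interval is 1 bp shorter in Ler, at 443 bp, with the missing base between positions 2437833 and 2437993.

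The annotated variants of the APX1 leader carried no mark. A cassette exon inside the leader intron, which starts at 2437678 or 2437681 and ends at 2437741 or 2437833, gave 4 skipping events. The 153 bp form had a level of 2.39% in Col and 1.91% in Ler, the 156 bp form at 1.87% and 1.63%, the 61 bp form at 1.05% and 0.870%, and the 64 bp form at 0.522% and 0.581%. Their q values in the authors' deposited table ran from 0.174 to 0.936. Between the donors of this exon, 2437833 was used at 81.9% in Col and 79.9% in Ler. Against the full leader intron, joining from 2437833 had 1.73% in Col and 1.39% in Ler, and joining from 2437741 had 0.375% and 0.342%. The acceptors of the exon were rare against 2437993 too, with 0.681% in Col and 0.531% in Ler for 2437681 and 0.148% and 0.241% for 2437678. The acceptors at 2437678 and 2437681 lie 3 bp apart, and the upstream one had 17.5% in Col and 30.6% in Ler (q = 0.311, the authors' deposited table). Retention of the 159 bp part after 2437833 was at 20.5% and 17.6%, of the 251 bp part after 2437741 at 66.3% and 58.8%, of the 122 bp part up to 2437678 at 77.4% and 72.6%, and of the 125 bp part up to 2437681 at 44.1% and 55.7%. None of these was marked. The single APX1 event in the coding span was an unannotated 90 bp interval that starts 3 bp before the annotated donor, at gaaatacgctGCtgtatgtc (2439178 to 2439197, intron start in capitals), with GC in place of the usual GT. It was listed at 98.1% retained in Col and 97.4% in Ler.

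**Figure D3:**
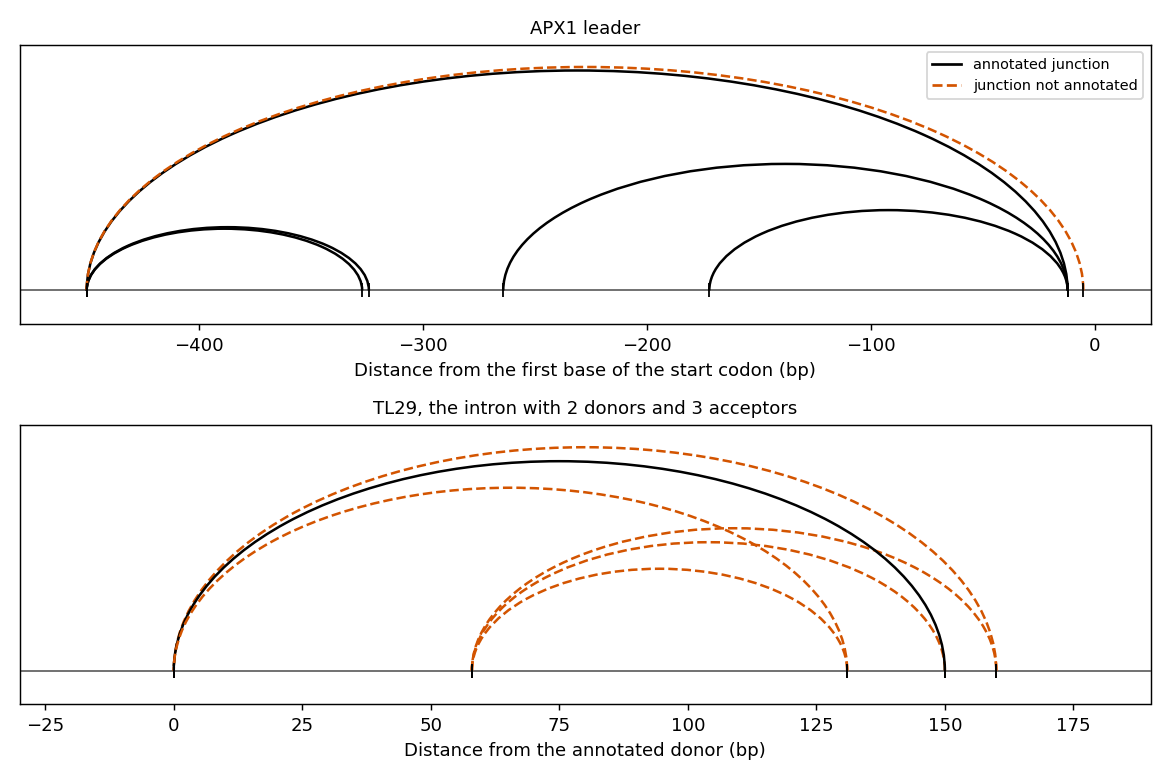
Junctions of the APX1 leader (distance in bp from the start codon) and of the TL29 intron with 2 donors and 3 acceptors (distance in bp from the annotated donor), each drawn as an arc from donor to acceptor. Solid arcs are annotated in at least 1 transcript and dashed arcs in none; arc height follows interval length and not use. The dashed APX1 arc ends 5 bp before the start codon.

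TL29 is a protein of the thylakoid lumen that belongs to the family by sequence and is known to lack peroxidase activity. All of its 16 events lay in the coding span, and 3 were marked. A pair of marked events start at a donor at chromosome 4, 5779004, which lies 58 bp inside the intron that begins at the annotated donor 5779062. The donors are compared because the Ler forms turn on the former, which is annotated in 0 of 3 transcripts. Sequences are on the minus strand, with the first bases of the intron in capitals.
TL29 donor 5779062: agtcggaatgGTaccttaac
TL29 donor 5779004: atgagatattGTaatgtata
The windows cover 5779052 to 5779071 and 5778994 to 5779013.

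Use of the inner donor with the annotated acceptor at 5778912 was listed at 0 in Col and 0.430% in Ler, unmarked (q = 0.000187, the authors' deposited table). With the acceptor at 5778931 it was listed at 0 in Col and 44.7% in Ler against the annotated donor (q = 0.0925, the authors' deposited table). Among forms from the inner donor, the acceptor at 5778931 was listed at 0 in Col and 47.2% in Ler (q = 1, the authors' deposited table). As the donor events list this donor at 0 in Col with either acceptor, that Col level is no measured share of acceptors. The 3 retention events that start at this donor were each at 97.5% in Col. That leaves 2.5% in Col to forms spliced from the donor, while the donor events above list 0 there. The listed values do not show why these differ, and the marked events below rest on the Col level of 97.5%. In Ler the 91 bp interval was at 71.2% and the 72 bp interval at 72.3%, both marked (q = 0.00129 and q = 0.00234, the authors' deposited table). The 101 bp interval was at 90.4% in Ler, unmarked. In each of these retention and donor events, forms spliced from the inner donor had the larger part in Ler, but the levels share junctions. An annotated antisense RNA gene, AT4G05690, overlaps this intron on the plus strand (5778891 to 5779084) and 11 of the TL29 events lie in the overlap. The strand of the reads being unknown here, unspliced reads of the antisense gene and of TL29 cannot be told apart there.

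The annotated donor of this TL29 intron was also joined to acceptors other than 5778912, which reads ctcttgttAGgaattaatag on the minus strand (5778903 to 5778922). The annotated acceptor was used at 98.9% in Col and 98.4% in Ler against one 10 bp farther, at 5778902. An acceptor 19 bp before it, at 5778931, was used at 0.242% in Col and 0.478% in Ler. Against 5778902, the acceptor at 5778931 had 17.6% in Col and 23.3% in Ler. Retention levels from the annotated donor were 40.8% and 37.7% for the 159 bp interval and 82.1% and 74.1% for the 130 bp interval. None of these was marked.

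The 1 event of the 5 genes that was marked as higher in Ler was another TL29 retention event, with 79.6% in Col and 96.5% in Ler (q = 3.13e-10, the authors' deposited table). Its interval ends at an unannotated acceptor at chromosome 4, 5778031, which lies 17 bp inside the exon that begins at the annotated acceptor 5778048. On the minus strand the annotated acceptor reads aatctgttAGtggggattgt (5778039 to 5778058) and the unannotated one reads tgtttgatAGaaattttgga (5778022 to 5778041). In the direct contrast the unannotated acceptor took 1.38% in Col and 0.241% in Ler, which is 1.14 points apart and unmarked (q = 3.15e-09, the authors' deposited table). The form with the 17 bp removed, which shifts the frame, thus had the larger part in Col. In Ler this 95 bp interval has 94 bp. In the remaining TL29 introns, an acceptor 4 bp inside the exon took 0.453% in Col and 0.373% in Ler, and one 9 bp inside another exon took 0.0496% and 0.0209%, both unmarked (q = 0.856 and q = 0.823, the authors' deposited table). The retention event that ends at the former was at 53.6% in Col and 42.9% in Ler, unmarked.

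APX3, the enzyme of the peroxisomal membrane, had a pair of alternative acceptors in the coding span. Each is an unannotated site inside an exon, 5 bp and 16 bp after the annotated acceptor, and both steps shift the frame. The acceptor sites are shown on the minus strand with the last bases of the intron in capitals.
APX3 acceptor 16665910, annotated: gggtgtttAGggaagggctc
APX3 acceptor 16665905: tttagggaAGggctcacccg
APX3 acceptor 16666076, annotated: atctctgtAGgtttccaaca
APX3 acceptor 16666060: aacatctcAGagatgtcttc
The windows cover chromosome 4, 16665901 to 16665920, 16665896 to 16665915, 16666067 to 16666086 and 16666051 to 16666070. The site 5 bp inside took 0.139% in Col and 1.08% in Ler (q = 0.00115, the authors' deposited table). The site 16 bp inside took 0.129% in Col and 0.864% in Ler (q = 0.0134, the authors' deposited table). Neither was marked, and both differed by under 1 point.

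Neither of the 2 TAPX events was marked. A donor 19 bp after the annotated one, which also shifts the frame, was used at 2.49% in Col and 3.24% in Ler (q = 0.426, the authors' deposited table). The annotated donor reads agactccctgGTtaactaat (chromosome 1, 29118685 to 29118704) and the other reads tctttccattGTctgtttca (29118704 to 29118723). Retention of the 84 bp interval after the latter was at 26.5% in Col and 23.9% in Ler (q = 0.949, the authors' deposited table).

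Rare forms can be set side by side over the 5 genes: 19 of the 27 events other than retention had a less used form under 5% in both ecotypes. That form had the larger share in Ler in 10 and in Col in 9. A q value under 0.05 was listed for 5 of the 19 in the authors' deposited table, and 4 of these had the larger share in Ler: the APX1 acceptor before the start codon, both APX3 acceptors and the inner TL29 donor. The fifth was the TL29 acceptor 17 bp inside its exon, with the larger share in Col. Of the other 14, 6 had the larger share in Ler and 8 in Col. The same split over rare forms of all genes is not given here, so no lean toward an ecotype can be read from these counts. Over all 42 events, q was under 0.05 for 12 (28.6%), against 14.3% of all events in the authors' deposited table. With at least 10 points as well there were 7, against 8.41% of all events, and 8 differed by at least 20 points whatever the q value, against 9.82%. In the coding span, 11 of the 13 alternative-site events change the length by a number of bases that is not a multiple of 3. The exceptions were the single codon of SAPX and the 9 bp of TL29. Of the 11, 8 were in TL29, several of them sharing sites, and the share over all events is not given here.

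**Figure D4:**
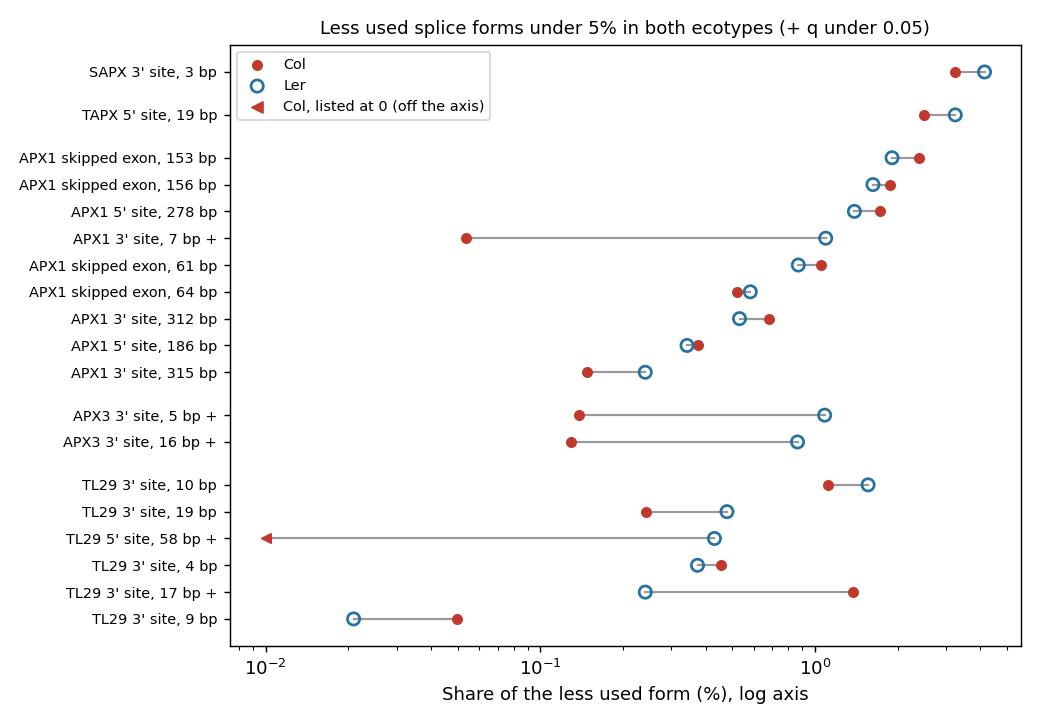
Share (%) of the less used form in Col (filled) and Ler (open) for the 19 alternative-site and exon events in which it was under 5% in both ecotypes, on a log axis. The triangle stands for a level listed at 0, which a log axis cannot show, so the length of that line has no meaning. The 5 events with a q value under 0.05 carry plus signs. Apart from the line with the triangle, these have the widest gaps on this axis, among them 0.0538% and 1.09% in APX1.

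The genes that work beside ascorbate peroxidases were taken from a list of 43 for other peroxidases, ascorbate and glutathione reductases, superoxide dismutases, catalases, peroxiredoxins and ascorbate synthesis. Events were listed for 18 of them, 53 in all, and 1 was marked (1.89%, against 7.46% of all events), higher in Ler, with 0 higher in Col. It was a 95 bp intron of CSD3, a copper/zinc superoxide dismutase, listed at 19.7% in Col and 47.9% in Ler (q = 7.74e-25, the authors' deposited table). The superoxide dismutases, which form the peroxide that ascorbate peroxidases consume, had 25 of the 53 events in 4 of 8 listed genes. FSD1, the iron superoxide dismutase, had the group's largest difference, in a 99 bp intron before the start codon. Its levels were 33.3% in Col and 90.0% in Ler, unmarked although q = 0.0127 (the authors' deposited table). The 3 listed catalases had 0 events.

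In the groups with no mark, the event with the largest difference is given for each. APX6, a further ascorbate peroxidase, had an intron at 17.4% in Col and 33.3% in Ler. MDAR4, a monodehydroascorbate reductase of the peroxisome that regenerates ascorbate, had an intron at 90.5% and 66.7%. DHAR2, a dehydroascorbate reductase, had an intron at 6.72% and 10.3%, and GR1, a glutathione reductase, had a 5' site event at 70.9% and 78.6%. An intron of 2-Cys Prx B, a chloroplast peroxiredoxin, was at 70.9% and 75.0%, and one of GPX6, a glutathione peroxidase, at 97.6% and 94.5%. VTC4, an enzyme of ascorbate synthesis, had a 3' site event at 99.1% and 98.6%. For these 7 events the authors' deposited table gives q from 0.278 to 0.914. For the pathway genes, CSD3 and FSD1 included, an intron means the interval listed for retention. Whether these intervals are annotated is not given here, so their levels need not show how often an annotated intron was kept. The median absolute difference was 1.08 points over the 53 events.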

How the data were processed

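Per the submitters' processing notes, which name no version, the tool was TopHat and the build TAIR10. Per the file headers, each ecotype has 1 inclusion level, deposited by the authors as a fraction, which was multiplied to percent. A text cell holds the authors' q value and a direction sign, per the file headers. Not given in the sources used here: how samples were combined, the read minimum, the test, read strandedness and the Ler assembly. The depth is unknown, and whether the 2 samples per ecotype were separate plantings is not stated.

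Events were chosen by gene identifier, and the members, the pathway list and the forms of description were chosen with earlier results of these data known. No test over samples was possible, so no p-value was computed, and the authors' marks were counted beside their share over all events. All events of the members are described. Of the pathway genes, marked events and the largest difference of each group without a mark, or of the group as a whole, are named. A retention event of another gene within 1 point of the pair of SAPX levels was to be named, and the nearest was 3.41 points away.

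Coordinates, transcripts, symbols and sequences came from RefSeq's TAIR10.1 assembly, in which 16 of the 30 intervals of the members equal an annotated intron, read with Python 3.11.15, pandas 2.3.3 and Biopython 1.88, and all 48 genes matched. Location refers to the coding span of the first-listed transcript. The parser was tested on made-up identifiers. Equal-length exon stretches were compared base by base without gaps.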

Additional observations from a re-analysis of the deposited data

How the results depend on the processing

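Of the ascorbate peroxidase events, 6 were marked, 12 had a q value under 0.05 alone and 7 had it with at least 10 points. Without events of another length in Ler, 2 of the marked events were left, both from the inner TL29 donor, and the median absolute difference was 3.11 points in place of 1.58. With 1 event per gene, the first by position, 0 were marked, 1 of the 5 genes having a q value under 0.05 at that event, and the median was 0.946 points. Counts of 4 to 8 were found without levels listed at 0, with differences of at least 20 points, and under the alternatives added after the data were seen, which were 1 marked event per shared junction end and leaving out the SAPX interval. Of the other pathway events, 1 was marked, 2 had a q value under 0.05 with at least 10 points and 6 had it alone. Over all events, 1054 were marked and 2028 had a q value under 0.05 alone. No paired analysis was possible because the authors deposited 1 pooled level per ecotype. For the same reason no replicate could be left out. The depth is unknown.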
